A study of Homo sapiens with 32 samples.

Results

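SKNO-1 is an established human acute myeloid leukaemia cell line with the t(8;21) translocation, which fuses the transcription factor gene RUNX1 to RUNX1T1. The libraries described here are the 8 that the titles place in SKNO-1 at 24 h, of 32 RNA sequencing libraries in the study. The remainder came from SKNO-1 at 72 h and from Kasumi-1, another line with the same translocation, and of these the 8 libraries of Kasumi-1 at 24 h and the 8 of SKNO-1 at 72 h were used for comparison. SKNO-1 cells had received DMSO at 0.1%, the vehicle, RN-1 at 1 µM, an irreversible inhibitor of the histone demethylase KDM1A, GSK690 at 1 µM, a reversible inhibitor of the same enzyme, or GSK690* at 1 µM, an isomer of GSK690 that the study describes as inactive. Each agent has 2 libraries. All 8 cultures were in RPMI with 10% fetal calf serum and 10 ng/mL GM-CSF, a myeloid growth factor, so controls and inhibitor cultures share that stimulus. The RN-1 and GSK690 libraries (4) were set against the DMSO and GSK690* libraries (4). The libraries of an agent are called biological replicates, with no word on how the cultures were started. In this comparison p-values measure the spread among the 4 cultures of a side. That spread mixes differences between the 2 agents of the side with differences between cultures of an agent. The general treatment protocol gives 4 days for SKNO-1, and the time of 24 h was taken from the title and time label of each library.

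KDM1A, also called LSD1, removes methyl groups from a histone lysine whose methylation marks active promoters and enhancers. It works in a repressor complex with the CoREST scaffold RCOR1 and the histone deacetylases HDAC1 and HDAC2. The DNA-binding repressors GFI1 and GFI1B carry a short SNAG domain that recruits this complex to their target genes, many of which are bound and activated by the myeloid factors PU.1 (gene SPI1) and C/EBP. In myeloid leukaemia, KDM1A inhibitors are known to release such genes, and the surface proteins CD86 and CD11b (gene ITGAM) serve as early readouts.

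Expression was deposited as FPKM, fragments scaled by transcript length and by the number mapped in the library, which allows levels of different genes to be compared per length. Of 23073 genes in the table, 10968 reached 1 FPKM in at least 2 of the 8 libraries. In single libraries, 10561 to 10850 genes reached 1 FPKM. Read counts were not used here. The steps between low FPKM values placed the depth of the libraries at 0.720 to 1.28 times that of DMSO replicate 1, and the replicate 1 libraries of GSK690 and GSK690* were the shallowest. Libraries of the same agent correlated across genes with Pearson r of 0.982 to 0.995. The first principal component (52.3% of the variance) separated inhibitors from controls, but the inhibitor libraries numbered 2 lay at only 0.753 and 2.95 on it, against 23.0 for both of those numbered 1 and -16.5 to -5.66 for the controls. Library names run in a separate series for each replicate number, and what that series stands for is not stated. Values are therefore given by replicate throughout.

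The leukaemic blast genes named for this check were present: RUNX1T1 stood at 21.2 to 25.2 FPKM, KIT at 56.2 to 87.3, CD33 at 67.4 to 94.6 and POU4F1 at 1.05 to 1.30 over the 8 libraries. CD34, the stem and progenitor antigen, was close to 0 in controls (0.117 to 0.260 FPKM). Single genes that define other cell types were at or near 0. HBB, PF4 and MS4A1 were listed at 0 in all 8 libraries, and CD3E and COL1A1 did not exceed 0.0309 FPKM. The monocyte markers CD14 (0 in each control, 0.0202 to 0.232 FPKM with inhibitors) and CSF1R (0.143 to 0.369 and 0.300 to 0.617 FPKM) stayed under 1 FPKM. ITGA2B, a megakaryocyte integrin, was expressed in every library, at 16.5 to 20.8 FPKM in controls and 19.1 to 42.9 FPKM with inhibitors, and did not pass (adjusted p = 0.113, limma). The wider lists for these cell types also hold genes that the cultures express. Their summed level in controls was 392 to 463 FPKM for B cells (led by IGLL1 and XBP1), 118 to 335 for erythroid cells (led by TFRC), 134 to 174 for cytotoxic lymphocytes (led by SRGN) and 69.9 to 84.0 for megakaryocytes (led by FLI1). With inhibitors these sums were 275 to 409, 102 to 276, 92.5 to 184 and 73.2 to 104 FPKM, and each overlapped the controls.

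The target itself was examined first. KDM1A (chromosome 1, 23345940 to 23410182, hg19) stood at 68.7 FPKM in DMSO replicate 1 and 70.1 in GSK690* replicate 1, and at 64.5 in GSK690 replicate 1 and 61.8 in RN-1 replicate 2. The other 4 libraries have no deposited value for it, so its log2 change of -0.13 ± 0.09 (SE, adjusted p = 0.423, limma) rests on 2 libraries a side. A catalytic inhibitor need not change the level of its target, so this value does not check the treatment. Of 19 measured components of KDM1A complexes, 1 rose and 1 fell, where 3.94% of all genes tested rose and 2.07% fell. ZNF217, a zinc finger protein found with CoREST, went from 8.28 ± 0.628 FPKM (SD, n = 4) in controls to 11.3 ± 0.901 FPKM, and RREB1, another zinc finger partner, from 14.3 ± 0.756 to 11.2 ± 0.785 FPKM. Their calls were lost in 3 and 4 of the 8 fits that left out 1 library, and that of RREB1 also with 4 group means (adjusted p = 0.0596). The scaffold RCOR1 stood at 20.5 to 23.0 FPKM in controls and 18.2 to 21.9 FPKM with inhibitors (log2 -0.10, adjusted p = 0.439, limma).

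Both GFI1 paralogs rose. In bulk RNA, more cells expressing a gene and more RNA per cell cannot be told apart, here or below. GFI1 (chromosome 1, 92940318 to 92952433, hg19) is expressed in these cells without inhibitor. It stood at 94.1 and 90.4 FPKM in DMSO replicates 1 and 2 and at 106 and 95.1 in GSK690*, against 140 and 118 with RN-1 and 146 and 125 with GSK690. All 4 inhibitor libraries lay above all 4 controls, and the log2 change was 0.45 ± 0.08 (adjusted p = 0.0114, limma). GFI1B (chromosome 9, 135820931 to 135867083, hg19), the paralog used in erythroid and megakaryocyte development, was nearly silent in controls, at 0.110 and 0 FPKM in DMSO and 0.617 and 0.0218 in GSK690*. It reached 17.0 and 17.2 FPKM in the replicate 1 libraries of RN-1 and GSK690, but only 1.53 and 1.94 FPKM in those of replicate 2. The log2 change was 2.59 ± 0.59 (adjusted p = 0.0285, limma), 3.76 within replicate 1 and 1.43 within replicate 2. This call was lost in 5 of the 8 fits that left out 1 library and in the fit with 4 group means (adjusted p = 0.0831). ZEB2, a repressor that can also recruit KDM1A, fell by 0.34 from 42.4 ± 3.11 to 33.5 ± 3.64 FPKM (adjusted p = 0.0434, limma). Its call was lost in 6 of the 8 fits without 1 library, with either other scaling and with 4 group means (adjusted p = 0.0896). That of GFI1 was lost in 1 of the 8.

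Promoter sequences are shown for GFI1B, which GFI1 proteins are known to repress, and for FCGR2B, which had the highest rise. They are the 250 bases before each RefSeq start of the gene (GRCh38.p14), read 5′ to 3′ on the gene's strand. Capitals mark the letters GAGGAA (bound by PU.1 and other ETS factors) and AAATCA (the core of the GFI1 motif), searched on both strands. No 2 matches overlap.
GFI1B first start, chr9:132945281-132945530, plus strand: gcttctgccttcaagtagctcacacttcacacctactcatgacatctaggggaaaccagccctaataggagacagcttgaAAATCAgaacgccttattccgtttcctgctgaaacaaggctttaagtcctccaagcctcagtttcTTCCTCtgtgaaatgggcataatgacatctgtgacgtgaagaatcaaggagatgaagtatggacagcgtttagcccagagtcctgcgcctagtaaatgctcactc
GFI1B second start, chr9:132978444-132978693, plus strand: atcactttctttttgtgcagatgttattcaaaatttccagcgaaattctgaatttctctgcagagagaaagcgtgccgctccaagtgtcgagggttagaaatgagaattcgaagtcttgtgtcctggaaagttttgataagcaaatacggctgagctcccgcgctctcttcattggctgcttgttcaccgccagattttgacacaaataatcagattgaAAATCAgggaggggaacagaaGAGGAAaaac
FCGR2B first start, chr1:161646993-161647242, plus strand: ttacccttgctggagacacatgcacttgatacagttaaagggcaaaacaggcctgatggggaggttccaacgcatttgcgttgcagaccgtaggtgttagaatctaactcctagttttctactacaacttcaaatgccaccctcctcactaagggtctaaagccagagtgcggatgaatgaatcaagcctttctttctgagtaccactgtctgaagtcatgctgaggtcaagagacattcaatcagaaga
FCGR2B second start, chr1:161662893-161663142, plus strand: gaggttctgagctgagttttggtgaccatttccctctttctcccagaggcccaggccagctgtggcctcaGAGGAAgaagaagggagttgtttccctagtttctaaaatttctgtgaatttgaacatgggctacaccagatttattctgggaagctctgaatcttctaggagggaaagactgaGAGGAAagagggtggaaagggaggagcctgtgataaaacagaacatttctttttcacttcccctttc
Both GFI1B windows hold AAATCA, 170 bases before the first start and 31 bases before the second, each with a GAGGAA match (on the reverse strand in the first window). The window at the second FCGR2B start holds GAGGAA at 180 and 67 bases before it, and the first window holds neither motif. Over all 35116 RefSeq windows of the same length, AAATCA is present in 11.6% and GAGGAA in 23.6%. Taking the outermost window of each gene, AAATCA is present in 10.7% of 298 genes that rose, 4.5% of 179 that fell and 5.7% of 7874 other genes tested, and GAGGAA in 26.5%, 15.6% and 23.3%. TGTGGT, the letters bound by RUNX factors, is present in 9.4%, 8.9% and 7.7% of the same windows, and the C/EBP motif TTGCNNAA in 6.0%, 3.9% and 6.1%. These shares are descriptions, and a match is not a shown site.

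Of 10967 genes tested with limma, 659 changed (6.01%) at an adjusted p under 0.05: 432 rose (3.94%) and 227 fell (2.07%). By at least 1 on the log2(FPKM + 1) scale, which understates the change of low genes, 79 rose and 1 fell. Irrespective of the test, the inhibitor libraries all lay on 1 side of the controls in 1709 of 10956 genes with all values (15.6%), 733 with every inhibitor library higher and 976 with every one lower. The median log2 change of all genes was -0.03. Calls were more often higher than lower in this fit, while genes without overlap, and the median, leaned the other way. Of the called genes, 65.6% rose, and after scaling by the median of ratios 75.8% did (529 higher and 169 lower). The counts depend on single libraries: without DMSO replicate 2, 148 rose and 15 fell, and without DMSO replicate 1, 181 and 22. Omitting GSK690 replicate 1 gave 199 and 28, and omitting RN-1 replicate 1 gave 276 and 72. They came to 224 and 61 without GSK690* replicate 2, 376 and 85 without GSK690* replicate 1 and 621 and 269 without RN-1 replicate 2. Without GSK690 replicate 2 they came to 528 and 649, with more genes lower than higher. Of 76 named genes that passed, 30 kept their call whichever library was left out and 38 kept it with 4 group means.

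**Figure D1:**
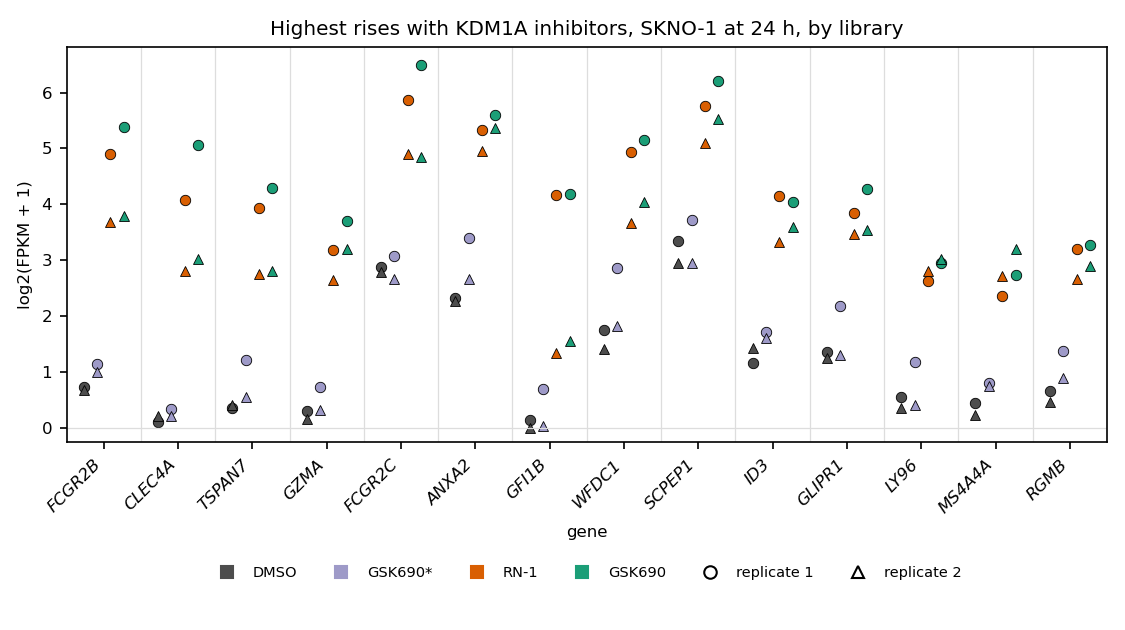
Expression of the 14 genes with the highest rise, as log2(FPKM + 1) in each of the 8 libraries (colour gives the agent, circles replicate 1, triangles replicate 2). The genes were chosen among called genes in which all 4 inhibitor libraries lie above the 4 controls, so this separation was set by the choice. GFI1B spans 17.0 to 17.2 FPKM in the inhibitor libraries of replicate 1 and 1.53 to 1.94 FPKM in those of replicate 2, while LY96 and MS4A4A are higher in replicate 2.

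The highest rise was that of FCGR2B, the Fc receptor for IgG that inhibits immune cell activation (chromosome 1, 161551100 to 161648444, hg19). It stood at 0.674 and 0.613 FPKM in DMSO replicates 1 and 2 and at 1.21 and 1.00 in GSK690*. With RN-1 it reached 28.9 and 11.9 FPKM, and with GSK690 40.6 and 12.9. The inhibitor libraries of replicate 1 were thus the highest, and none overlapped the controls. The log2 change was 3.55 ± 0.32 (adjusted p = 1.61e-04, limma). Its locus in the deposited annotation spans FCGR2C, FCGR3A and FCGR3B, and its sequence is nearly that of FCGR2C (log2 2.67), so reads can be counted under either gene.

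CLEC4A, an inhibitory C-type lectin of dendritic cells and monocytes (chromosome 12, 8276227 to 8291203, hg19), did not exceed 0.262 FPKM in any control. It stood at 16.0 and 5.97 FPKM with RN-1 and at 32.6 and 7.14 FPKM with GSK690 in replicates 1 and 2, a log2 change of 3.52 ± 0.39 (adjusted p = 4.60e-04, limma). No other of the 8 C-type lectins tested rose, so CLEC4A stood alone in that family among 24 listed, 16 of which were under the filter on low values. The tetraspanin TSPAN7 went from 0.606 ± 0.494 FPKM (SD, n = 4) to 11.2 ± 6.33 FPKM. GZMA, granzyme A of cytotoxic lymphocytes (chromosome 5, 54398475 to 54406080, hg19), stood at 0.127 to 0.672 FPKM in controls and at 8.15, 5.25, 11.997 and 8.25 FPKM in RN-1 and GSK690 replicates 1 and 2. Its log2 change was 2.80 ± 0.20 (adjusted p = 5.91e-05, limma), and it was the single riser of 5 tested cytotoxic lymphocyte genes, with CD3E at 0 to 0.0256 FPKM.

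Other genes among the highest were ANXA2, a membrane-binding annexin (5.71 ± 2.66 to 39.1 ± 7.06 FPKM), the secreted protease inhibitor WFDC1 (3.23 ± 2.08 to 22.8 ± 10.98 FPKM) and the serine carboxypeptidase SCPEP1 (8.71 ± 2.56 to 50.9 ± 16.6 FPKM). ID3, an inhibitor of basic helix-loop-helix factors and a known target of BMP signalling, went from 1.83 ± 0.449 to 13.04 ± 3.61 FPKM. RGMB, a BMP co-receptor, went from 0.859 ± 0.535 to 7.19 ± 1.56 FPKM, and GLIPR1 from 2.001 ± 1.04 to 13.1 ± 3.79 FPKM. Of the 14 highest genes, 13 kept their call whichever library was left out, and GFI1B was the exception. GSK690* replicate 1 was the highest control in most of them: at 9.56 FPKM of ANXA2, 6.29 of WFDC1 and 1.34 of TSPAN7, against 4.02, 2.39 and 0.282 in DMSO replicate 1.

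Of 17 listed Fc receptors 9 were tested and 8 of these rose, with a median log2 change of 0.91 against -0.03 for all genes. With 4 group means 6 rose and with 32 libraries 7 did. Besides the FCGR2 pair, FCER1A, the IgE-binding chain of the mast cell and basophil receptor, went from 1.24 ± 0.531 to 5.85 ± 3.78 FPKM (log2 1.45 ± 0.35, adjusted p = 0.034, limma). It stood at 8.90 and 9.32 FPKM in the inhibitor libraries of replicate 1 and at 2.16 and 3.04 in those of replicate 2, each above every control. Its call was lost in 5 of the 8 fits without 1 library and with 4 group means (adjusted p = 0.0869). Its partner FCER1G, the shared signalling chain, rose by 0.70 and the high-affinity IgG receptor FCGR1A by 0.91 on the log2 scale. FCRLA, a B cell relative of Fc receptors, was listed at 0 in 3 controls and at 0.0370 FPKM in the fourth, and stood at 0.606 to 1.54 FPKM with inhibitors. The family's summed level ran from 83.4 to 104 FPKM in controls and from 152 to 294 with inhibitors. TRIM21, the cytosolic antibody receptor, was the member that did not pass (log2 0.09).

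**Figure D2:**
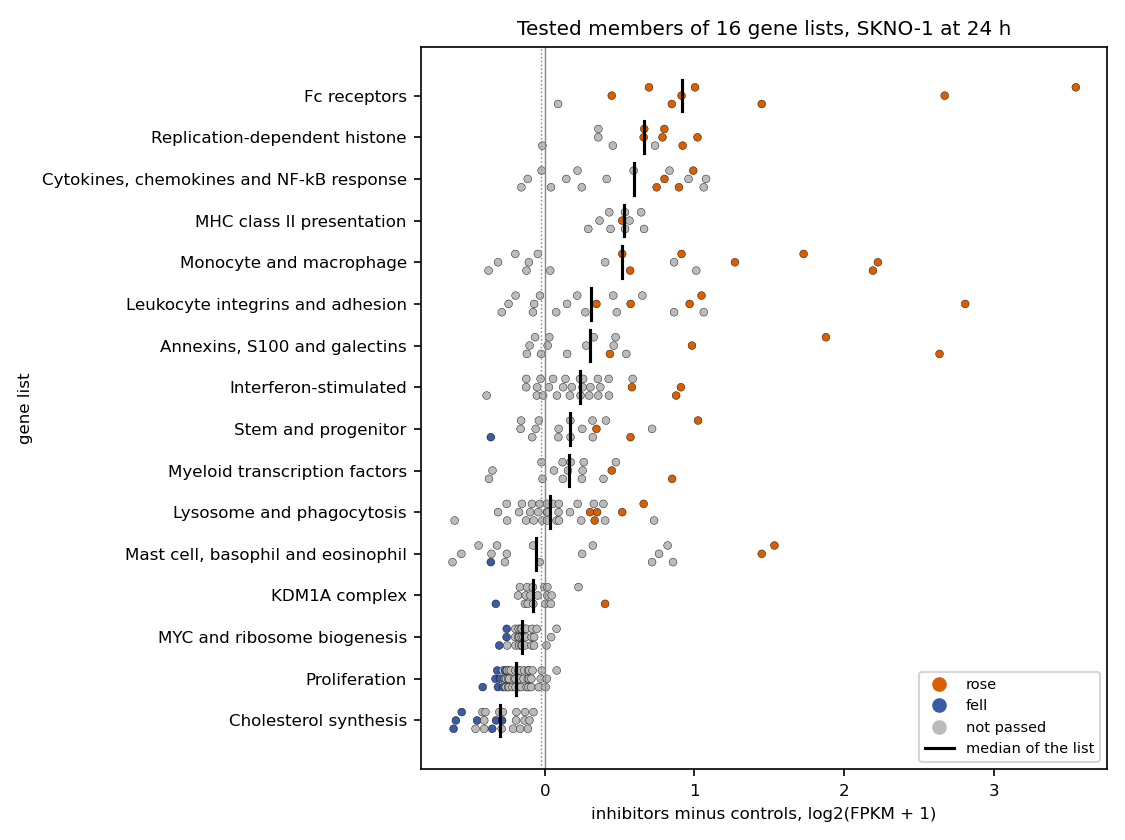
Log2 change, inhibitors minus controls, of each tested member of 16 gene lists (points, coloured by call), with each list's median as a black bar. The dotted line is the median of all genes, -0.03. The Fc receptors lie farthest to the right with a median of 0.91, and the cholesterol synthesis genes farthest to the left with -0.30.

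Markers of monocytes and macrophages moved unevenly. Of 34 listed genes 17 were tested, and 7 rose, none fell and 10 did not pass (median log2 0.52). Their summed level ran from 298 to 338 FPKM in controls and from 389 to 492 with inhibitors, while CD14 and CSF1R stayed under 1 FPKM, and the part of a change in cell makeup was not tested. LY96, the partner of TLR4 in sensing lipopolysaccharide, went from 0.592 ± 0.468 to 6.28 ± 0.846 FPKM (log2 2.23 ± 0.17, adjusted p = 7.74e-05, limma). Its inhibitor libraries stood at 5.21 and 6.72 FPKM in replicate 1 and at 6.03 and 7.15 in replicate 2, so replicate 2 was no lower here. TLR4 itself was at log2 -0.20 (adjusted p = 0.373) and TLR2 at -0.05. MS4A4A, a macrophage surface protein, went from 0.498 ± 0.273 to 5.91 ± 1.69 FPKM. CD86, the T cell costimulatory ligand (chromosome 3, 121774212 to 121839983, hg19), stood at 0.715 and 0.944 FPKM in DMSO, 1.32 and 1.00 in GSK690*, 3.70 and 5.55 in RN-1 and 6.54 and 7.07 in GSK690. Its groups did not overlap (log2 1.73 ± 0.16, adjusted p = 1.99e-04, limma). LYZ, the antibacterial enzyme lysozyme, was already abundant, at 34.96 to 55.02 FPKM in controls, and stood at 84.2 and 103 FPKM in the inhibitor libraries of replicate 1 and 107 and 141 in those of replicate 2. ITGAM, which encodes CD11b, overlapped between groups: it reached 2.62 and 3.37 FPKM in replicate 1 with RN-1 and GSK690 but 0.717 and 1.11 in replicate 2, with 0.790 in GSK690* replicate 1 (log2 0.86, adjusted p = 0.070, limma).

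Few of the factors that drive myeloid genes passed. Of 16 tested myeloid transcription factors 2 rose, ID2 (log2 0.85) and GFI1, and none fell, where 3.94% of all genes tested rose. The median log2 change of the 16 was 0.16, against -0.03 for all genes. The summed level of the listed factors, GFI1 included, ran from 311 to 346 FPKM in controls and from 354 to 428 with inhibitors. SPI1, which encodes PU.1, stood at 64.1 to 78.4 FPKM in controls and 70.8 to 88.8 FPKM with inhibitors, and the groups overlapped (log2 0.06, 95% interval of the change from the fit -0.13 to 0.26, adjusted p = 0.716, limma). CEBPA was under the filter, at 0.194 to 0.977 FPKM in controls and 0.300 to 4.06 with inhibitors. The GM-CSF receptor chains CSF2RA (log2 0.25, adjusted p = 0.113) and CSF2RB (log2 -0.08) did not pass either. SOCS2, a feedback target of STAT5, was the 1 riser of 16 genes in the list of GM-CSF receptor and STAT5 targets (54.9 ± 4.70 to 75.2 ± 11.4 FPKM), a call lost in 5 of the 8 fits without 1 library and with 4 group means.

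Immunoglobulin-like receptors, adhesion proteins and lipid mediators of leukocytes held further risers. SIRPB2, a signal-regulatory protein, went from 0.590 ± 0.112 to 4.66 ± 1.17 FPKM, and LILRA2, an activating receptor of monocytes, from 2.63 ± 1.23 to 9.90 ± 3.35 FPKM. They were among 4 of 15 tested receptors of this kind that rose, and the shared adaptor TYROBP was at log2 -0.14 (adjusted p = 0.508, limma). Among 20 tested integrins and adhesion genes 5 rose, including the tetraspanin CD53 (40.3 ± 12.5 to 81.9 ± 9.60 FPKM). ALOX5, which starts leukotriene synthesis, stood at 11.6, 7.95, 16.5 and 9.69 FPKM in the DMSO and GSK690* libraries, at 49.6 and 26.7 with RN-1 and at 47.6 and 20.9 with GSK690. It rose by log2 1.53 ± 0.27 (adjusted p = 0.00941, limma). LTA4H, which makes leukotriene B, rose by 0.64, and the prostaglandin E receptor PTGER2 fell by 0.79. Of 18 tested mast cell, basophil and eosinophil genes ALOX5 and FCER1A rose and KIT fell, and granule genes such as CPA3 (log2 0.76, adjusted p = 0.236) and TPSB2 (0.86, adjusted p = 0.107) did not pass. None of 8 tested neutrophil genes passed (median log2 -0.12).

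Among annexins, S100 proteins and galectins 4 of 16 tested rose. LGALS1, galectin-1, had high levels in every library, from 19.0 to 36.0 FPKM in controls and from 73.2 to 141 FPKM with inhibitors (log2 1.88 ± 0.21, adjusted p = 4.92e-04, limma). S100A11, a calcium-binding protein, went from 15.6 ± 2.66 to 31.7 ± 3.60 FPKM (log2 0.98), and ANXA6 rose by 0.43. S100A4, the most abundant member at a mean of 233 FPKM in controls, was at log2 -0.12 (adjusted p = 0.462).

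Inflammatory response genes had a raised median that few members carried past the test. Of 17 tested genes for cytokines, chemokines and the NF-kB response 4 rose, with a median log2 change of 0.59, at 0.88 within replicate 1 and 0.18 within replicate 2. IL1B, interleukin-1 beta, stood at 8.34, 8.14, 12.2 and 9.93 FPKM in DMSO and GSK690*, at 22.5 and 13.5 with RN-1 and at 29.8 and 17.4 with GSK690. The NF-kB inhibitor NFKBIA (log2 0.80) and the deubiquitinase TNFAIP3 (0.90), both induced by NF-kB, also rose. The calls of both were lost in 5 of the 8 fits without 1 library, that of IL1B in 2, and 2 of the 17 genes passed with 4 group means. NFKB2, at log2 1.08 (adjusted p = 0.0613), and ICAM1, at 1.06 (adjusted p = 0.0643), did not pass. Of 29 tested interferon-stimulated genes 3 rose: BST2, which tethers virions (log2 0.91), the GTPase GBP2 (0.88) and RSAD2 (0.58). The call of RSAD2 was lost in 5 of the 8 fits without 1 library.

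Antigen presentation showed small shifts. Of 19 tested class I genes 3 rose, HLA-E (log2 0.52), the peptide transporter TAP2 (0.62) and the peptide trimmer ERAP2 (0.26). Their calls were lost in 5, 6 and 6 of the 8 fits without 1 library, and no class I gene passed with 4 group means. In class II, 1 of 10 tested rose, the lysosomal protease CTSS (29.7 ± 3.87 to 42.9 ± 4.54 FPKM, log2 0.52), while the median of the 10 was 0.53 and none was below 0.29. HLA-DRB1, at log2 0.66 (adjusted p = 0.202), has near-identical copies and its value is uncertain. Of 34 tested lysosome and phagocytosis genes 5 rose (median log2 0.04), including the growth factor precursor GRN (0.66). With quantile normalization 9 rose and with 4 group means 1 did, and the call of GRN was lost in 4 of the 8 fits without 1 library.

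Of 11 tested replication-dependent histone genes 6 rose, with a median log2 change of 0.66. HIST1H2AC stood at 4.01, 3.44, 5.65 and 3.46 FPKM in DMSO and GSK690*, at 11.9 and 5.70 with RN-1 and at 14.3 and 7.47 with GSK690. HIST2H2BE rose by 0.92 and HIST1H1C by 0.80, and as clustered genes with close copies their separate values are uncertain. With 4 group means 1 of the 11 passed, and the calls of HIST1H2AC and HIST1H1C were each lost in 5 of the 8 fits without 1 library. In contrast, of 45 tested proliferation genes 7 fell and none rose (median log2 -0.20), among them the replicative helicase subunits MCM4 (114 ± 6.31 to 85.9 ± 10.3 FPKM) and MCM6 (48.6 ± 0.826 to 38.7 ± 4.67 FPKM). With 4 group means none of the list passed, and with 32 libraries 8 fell. The calls of MCM4 and MCM6 were lost in 3 and 7 of the 8 fits without 1 library. MYC was at log2 -0.20 (adjusted p = 0.202), and 3 of 30 MYC and ribosome biogenesis genes fell. No cyclin-dependent kinase inhibitor of 7 tested passed.

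**Figure D3:**
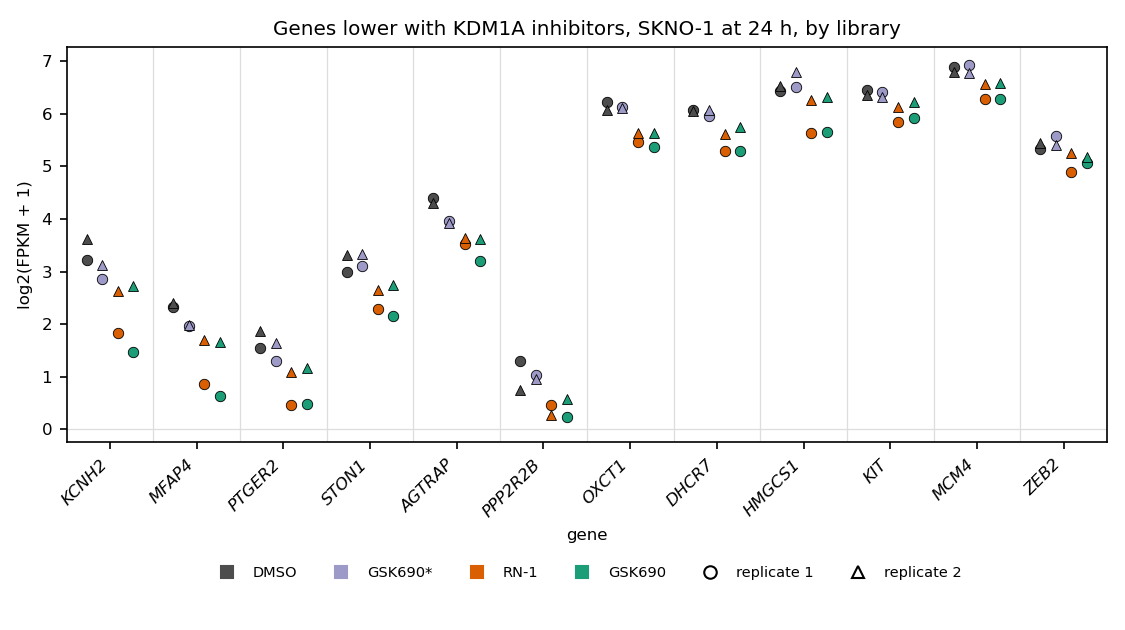
Expression of 7 of the 8 genes with the largest fall and of 5 further genes that fell, as log2(FPKM + 1) in each library (colour gives the agent, circles replicate 1, triangles replicate 2). The inhibitor libraries lie below the controls in each gene, which for the 7 was a condition of their choice. For KCNH2 and MFAP4 the inhibitor libraries of replicate 1 lie lowest, at 1.75 to 2.56 and 0.550 to 0.805 FPKM.

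The falls were smaller than the rises. KCNH2, a voltage-gated potassium channel (chromosome 7, 150642048 to 150675403, hg19), stood at 8.34 and 11.2 FPKM in DMSO, 6.23 and 7.74 in GSK690*, 2.56 and 5.17 in RN-1 and 1.75 and 5.62 in GSK690. It was the 1 called gene that fell by at least 1 on the log2(FPKM + 1) scale (log2 -1.04 ± 0.26, adjusted p = 0.0385, limma). Low genes can fall further in FPKM than this scale shows. OXCT1, which starts the use of ketone bodies, stood at 66.8 to 73.5 FPKM in controls and 40.4 to 48.8 FPKM with inhibitors. Its log2 change of -0.61 ± 0.07 (adjusted p = 9.71e-04, limma) kept its call in every fit without 1 library. AGTRAP fell by 0.65, STON1 by 0.73, PPP2R2B by 0.63 and MFAP4 by 0.96. The calls of KCNH2, MFAP4, PTGER2, STON1 and PPP2R2B were lost with 4 group means (adjusted p = 0.0560 to 0.0867). Those of KCNH2, MFAP4 and PTGER2 were each lost in 5 of the 8 fits without 1 library. Of the 8 genes with the largest fall, 2 kept their call whichever library was left out. None of the 8 passed in RN-1 against DMSO or in GSK690 against GSK690*.

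Of 24 tested genes of cholesterol synthesis 7 fell, none rose and 17 did not pass, with a median log2 change of -0.30 and no member above -0.08. DHCR7, the last enzyme of the pathway, stood at 66.5, 65.4, 61.6 and 66.6 FPKM in DMSO and GSK690*, at 38.2 and 47.9 with RN-1 and at 38.1 and 53.1 with GSK690 (log2 -0.56 ± 0.10, adjusted p = 0.0115, limma). All 4 inhibitor libraries lay below the controls. HMGCS1, an early enzyme, went from 94.2 ± 10.8 to 63.3 ± 16.3 FPKM, with 49.1 and 49.4 FPKM in the inhibitor libraries of replicate 1 and 76.3 and 78.6 in those of replicate 2. The list's median was -0.42 within replicate 1 and -0.17 within replicate 2. Counts moved with the scaling, to 3 fallen with quantile normalization and 4 with the median of ratios, and 3 fell with 4 group means or with 32 libraries. The call of HMGCS1 was lost in 6 of the 8 fits without 1 library, and that of DHCR7 in none.

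Progenitor genes went in both directions. KIT, the receptor for stem cell factor, stood at 78.7 to 87.3 FPKM in controls, at 56.2 and 59.4 in the inhibitor libraries of replicate 1 and at 69.0 and 74.0 in those of replicate 2 (log2 -0.36, adjusted p = 0.0354, limma). CD34 stood at 2.17 and 2.30 FPKM in the replicate 1 libraries with inhibitor and at 0.812 and 0.696 in those of replicate 2 (log2 1.02, adjusted p = 0.0198, limma). The calls of KIT and CD34 were lost in 6 and 4 of the 8 fits without 1 library and with 4 group means (adjusted p = 0.0821 and 0.0683), and that of KIT with quantile normalization. ERG, a stem cell transcription factor, rose by 0.57 (lost in 4 of the 8) and the myeloid antigen CD33 by 0.34. Of 18 tested genes in this list 3 rose and KIT alone fell. RUNX1T1, part of the fusion transcript, was at log2 -0.08 (adjusted p = 0.535). Of 14 tested genes known to be high in t(8;21) leukaemia 3 rose, RASSF5, TRH and ROBO1, by log2 0.50, 0.34 and 0.27. None of the 14 passed with 4 group means, these 3 calls were lost in 6, 7 and 7 of the 8 fits without 1 library, and TRH also lost its call with 32 libraries (adjusted p = 0.240).

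Among stress and death genes, TNFRSF10B, a receptor for the death ligand TRAIL and a p53 target, went from 4.16 ± 1.19 to 14.7 ± 4.86 FPKM (log2 1.58 ± 0.21, adjusted p = 0.00141, limma). It and ZMAT3 (log2 0.50) were the 2 risers of 29 tested genes in the p53 and BCL2 family list. HSPA6, an inducible heat shock protein, stood at 1.84 to 2.03 FPKM in controls, at 8.78 and 9.68 in the inhibitor libraries of replicate 1 and at 3.96 and 3.62 in those of replicate 2. DDIT4, a stress-induced inhibitor of mTOR signalling, rose by 1.15. The calls of HSPA6, DDIT4 and ZMAT3 were lost in 1, 3 and 2 of the 8 fits without 1 library. Those of HSPA6 and DDIT4 were also lost with 4 group means (adjusted p = 0.0616 and 0.0540, limma). HSP90AA1, an abundant chaperone, fell by 0.31 (adjusted p = 0.038). Of 29 tested heat shock and stress genes 3 rose and 1 fell (median log2 -0.05), and with 4 group means none passed.

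The weaker response in replicate 2 was general but uneven. Of the 432 genes that rose, the change was smaller in replicate 2 in 321 (74.3%), with a median of log2 0.64 within replicate 1 and 0.50 within replicate 2. Of the 227 that fell, it was smaller in 198 (87.2%), with medians of -0.42 and -0.26. Tested as an interaction with limma, the difference passed in 4 of 10964 genes (0.0365%), all lower in replicate 2, and 586 had an unadjusted p under 0.05. STAB1, the scavenger receptor stabilin-1, stood at 8.49 and 7.35 FPKM in the inhibitor libraries of replicate 1 but at 0.435 and 0.456 in those of replicate 2, with controls at 0.172 to 0.504. Its response in replicate 2 minus that in replicate 1 was log2 -2.47 (adjusted p = 3.68e-04, limma). GFI1B followed with -2.33 (adjusted p = 0.0018), and the mast cell tryptase TPSB2, which has a near-identical neighbour, with -1.53 and HSPA6 with -1.12 (adjusted p = 0.048 for each). With a pseudocount of 0.1 no gene passed. The count was 35 without RN-1 replicate 1, 19 without GSK690* replicate 1, 8 when GSK690 replicate 1 was omitted, 2 without either DMSO replicate 2 or GSK690* replicate 2, and 1 without RN-1 replicate 2.

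**Figure D4:**
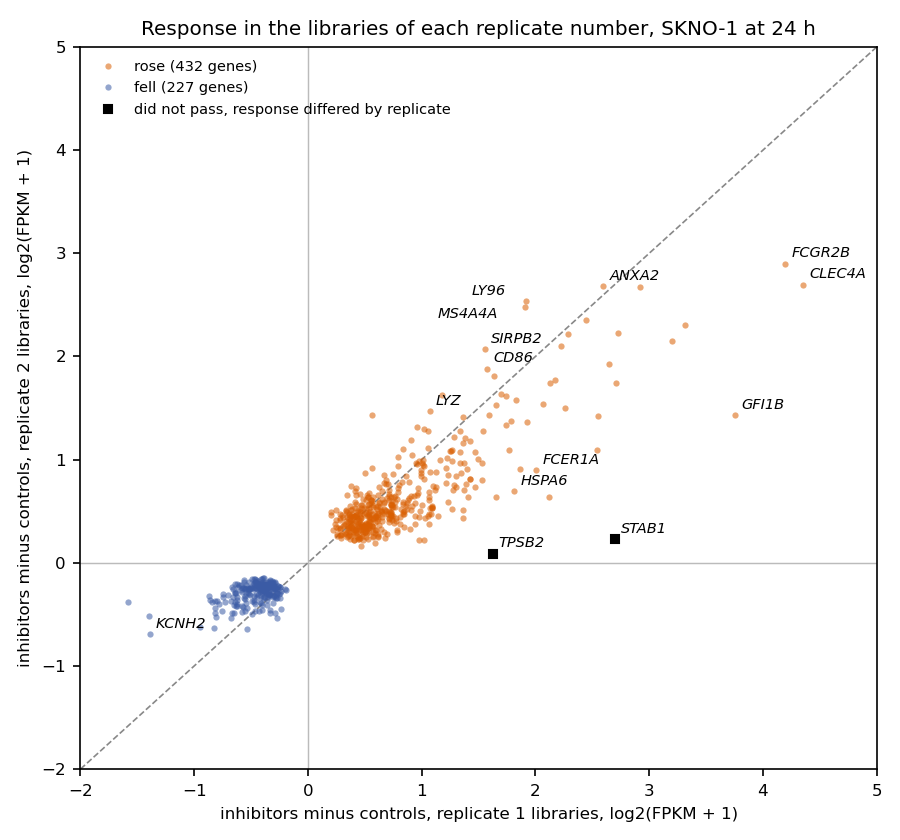
Log2 change, inhibitors minus controls, in the replicate 1 libraries (horizontal) and the replicate 2 libraries (vertical), for the 432 genes that rose, the 227 that fell and 2 further genes whose response differed between replicates. The dashed line marks equal responses. Most genes lie nearer to 0 on the vertical axis, GFI1B at 3.76 against 1.43, while LY96, MS4A4A, SIRPB2, CD86 and LYZ lie above the line.

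Some genes responded as strongly in replicate 2. LCP1, the actin bundler L-plastin, stood at 7.73 and 9.98 FPKM in the inhibitor libraries of replicate 1 and at 12.5 and 12.9 in those of replicate 2, with controls at 2.85 to 3.97. The within-replicate changes of LY96 were log2 1.91 and 2.54, those of MS4A4A 1.91 and 2.47, those of SIRPB2 1.56 and 2.07 and those of LYZ 1.07 and 1.47, and none of these differences passed the interaction test. Fitted apart, the 4 libraries of each replicate number called 430 genes up and 191 down in replicate 1 and 429 up and 72 down in replicate 2. The fits of both replicates shared 232 of the genes that rose (54.0% and 54.1% of each list) and 22 of those that fell (11.5% and 30.6%). No gene was called in opposite directions. In these fits RN-1 and GSK690 serve as each other's replicate, and so do DMSO and GSK690*. The fits also moderated the spread differently. Over the named genes the SE ran from 0.084 (MCM4) to 0.30 (WFDC1) in replicate 1. In replicate 2 it ran only from 0.113 (ERAP2) to 0.167 (FCRLA). The counts and the overlap of these fits are therefore not on a like footing.

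Each inhibitor was then set against its own control. RN-1 against DMSO called 64 of 10966 genes (0.584%), 63 higher and 1 lower, and GSK690 against GSK690* called 44 of 10967 (0.401%), all higher (limma, 4 group means, adjusted p under 0.05). They had 40 genes in common, 63.5% of those higher with RN-1 and 90.9% of those higher with GSK690. The compared means share no library, but both comparisons come from the same fit and use the same spread per gene. A gene with a small spread can thus pass in both, and the overlap is not independent support. RN-1 against DMSO called no gene without DMSO replicate 1, 1 without DMSO replicate 2, 21 without RN-1 replicate 1 and 36 without either GSK690* library. GSK690 against GSK690* called no gene without GSK690 replicate 1 or GSK690* replicate 2, 9 without either DMSO library, 13 without GSK690* replicate 1 or GSK690 replicate 2 and 67 without RN-1 replicate 1. Among the genes with the smallest p in both were MS4A4A and TMEM243, a small membrane protein (log2 1.65 ± 0.12 with RN-1 and 1.38 ± 0.12 with GSK690, adjusted p = 0.00413 and 0.00629). SLC1A3, a glutamate transporter, rose by 1.91 with RN-1 and 1.54 with GSK690. GZMA rose by 2.68 and 2.92, and ANXA2 by 2.84 and 2.44.

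The irreversible RN-1 and the reversible GSK690 were compared directly at 1 µM and 24 h. None of 10967 genes passed (0%), and 512 had an unadjusted p under 0.05. Over the 80 named genes that passed in the main comparison or in another, the difference RN-1 minus GSK690 ran from log2 -0.63 (FCRLA) to 0.20 (ALOX5), and in 68 of them its 95% interval lay within 1 log2 unit of 0 on both sides. For GFI1B the interval was -2.31 to 2.08, for CLEC4A -1.97 to 0.76 and for CD86 -0.90 to -0.08. GSK690 was nominally above RN-1 in 13 of the 14 highest genes in each replicate. A difference that missed the threshold does not show that the inhibitors act alike, and the design limits what 2 libraries an agent can resolve.

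GSK690* differed from GSK690 in 44 genes, as given above, and from DMSO in none of 10967 (0%, limma), with 210 at an unadjusted p under 0.05. It was nominally above DMSO in 83.1% of the 432 risen genes in replicate 1 (median log2 0.19) and in 66.4% in replicate 2 (0.06), against 53.3% and 40.9% of all genes tested. All 14 of the highest genes were higher in GSK690* than in DMSO in replicate 1. The 95% interval of the difference was 0.35 to 0.89 on the log2 scale for TMEM243, 0.22 to 1.24 for ANXA2, 0.19 to 0.94 for SLC1A3 and 0.12 to 0.87 for LYZ, with an adjusted p of 1.00 for each (limma). GSK690* replicate 1 was also among the shallowest libraries (0.724 of the depth of DMSO replicate 1), and the part of depth in these values was not tested. With DMSO alone as control, 177 genes rose and 15 fell.

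Part of the response differed from that of Kasumi-1 at 24 h, which received the same agents at the same dose, in medium with more serum and without GM-CSF. Tested as an interaction over all 32 libraries, 50 of 10963 genes passed (0.456%), 28 higher and 22 lower in SKNO-1 (113 passed without RN-1 replicate 2 and 126 without GSK690 replicate 2). Of the 28, 21 had risen in SKNO-1, while in Kasumi-1 7 had risen and 6 had fallen. Of the 22, all had risen in Kasumi-1 and 7 also in SKNO-1. Rises in SKNO-1 are those of the fit of 8 libraries, and calls in Kasumi-1 those of the fit of 32. The fit of 32 called more genes in SKNO-1 at 24 h (654 higher and 426 lower, against 432 and 227). The counts of the lines are therefore not on a like footing. Only genes that passed the filter in SKNO-1 at 24 h were tested, so genes expressed only in Kasumi-1 are not covered. The 14 highest genes were chosen by their rise in SKNO-1, so they lean towards a larger response there. Of them 8 responded more in SKNO-1 on the log2(FPKM + 1) scale: FCGR2B, CLEC4A, TSPAN7, GZMA, FCGR2C, ANXA2, WFDC1 and SCPEP1. CLEC4A stood at 0.147 ± 0.120 FPKM (SD, n = 4) in Kasumi-1 controls and 0.157 ± 0.129 with inhibitors, and the difference of responses was log2 3.51 (adjusted p = 2.47e-05, limma). GZMA went from 0.0442 ± 0.0371 to 0.906 ± 0.0760 FPKM there (difference 1.93, adjusted p = 7.39e-06). In SKNO-1 it went from 0.325 ± 0.239 to 8.41 ± 2.76 FPKM. GZMA did not exceed 1.01 FPKM in Kasumi-1, where the log2(FPKM + 1) scale understates a change. The same holds for FCGR2B, at means of 0.129 and 0.938 FPKM there. These differences therefore depend in part on level, and relative changes were not tested. LCP1 was higher at the outset in Kasumi-1, at 15.6 ± 2.78 FPKM, and was at 13.03 ± 1.52 FPKM with inhibitors (difference 1.63, adjusted p = 1.39e-05).

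**Figure D5:**
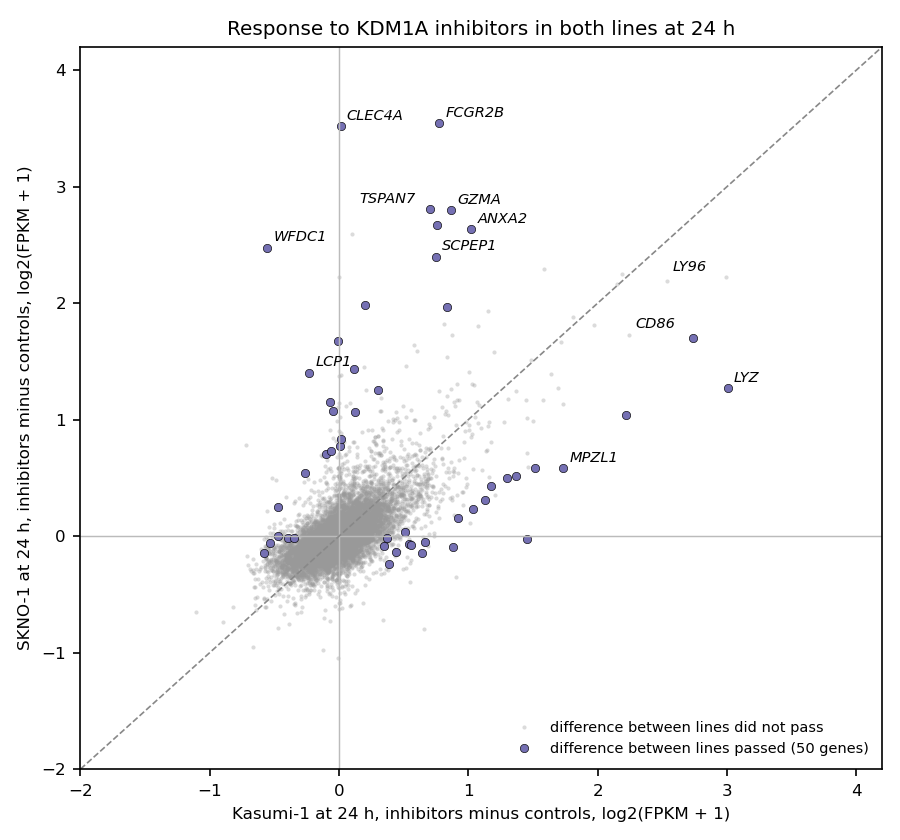
Log2 change, inhibitors minus controls, in Kasumi-1 (horizontal) and SKNO-1 (vertical) at 24 h for the genes tested, with the 50 genes whose response differed between the lines in purple and the dashed line at equal responses. CLEC4A lies at 0.01 in Kasumi-1 and 3.52 in SKNO-1, and MPZL1 at 1.73 and 0.58.

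MPZL1, a membrane glycoprotein, showed the reverse, from 0.957 ± 0.363 to 5.42 ± 0.195 FPKM in Kasumi-1 but from 32.4 ± 3.86 to 48.9 ± 3.81 FPKM in SKNO-1, where it was abundant without inhibitor (difference -1.15, adjusted p = 7.39e-06, limma). LYZ rose by log2 3.01 in Kasumi-1 and by 1.27 in SKNO-1 (difference -1.74, adjusted p = 4.27e-04). GLIPR1, LY96, MS4A4A and RGMB rose in both lines, with differences of 0.06, -0.77, -0.35 and 0.01 that did not pass (adjusted p = 0.104 to 0.996). The lines also differ in serum and GM-CSF, which cannot be told apart from the line.

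The response at 24 h was also set against that at 72 h in SKNO-1. None of 10965 genes differed between 24 and 72 h in its response (0%, limma interaction), with 128 at an unadjusted p under 0.05. All 14 of the highest genes rose at 72 h in the fit of 32 libraries. FCGR2B went from 1.01 ± 0.123 to 29.4 ± 6.40 FPKM there, GZMA from 0.145 ± 0.0964 to 11.1 ± 2.45 and LY96 from 0.574 ± 0.397 to 7.69 ± 1.48. GFI1B, so uneven at 24 h, stood at 10.2 to 21.6 FPKM in all 4 inhibitor libraries at 72 h and did not exceed 0.239 FPKM in the controls. A sample sheet deposited with the data gives the 72 h libraries to the other cell line, and the GEO titles were followed here.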

How the data were processed

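RNA from the cultures, isolated with Trizol or RNeasy Plus (which library had which is not stated), was sequenced, and the authors deposited 1 table of FPKM per gene for all libraries. Per the submitters' processing notes, TopHat 1.4.1, Cufflinks and the build hg19 were used; the annotation release and the use of strand are not given in the sources used here, so antisense and overlapping genes cannot be told apart. Absolute depth is unknown. From the deposited FPKM, log2(FPKM + 1) was tested with limma 3.58.1 (R 4.3.3, moderated with an intensity trend) over genes at 1 FPKM or more in at least 2 of the 8 libraries. Missing values were left out, not imputed. Fold changes are on the log2(FPKM + 1) scale, which understates the change of low genes. P-values were adjusted by Benjamini-Hochberg over all genes tested, with a threshold of 0.05. The main fit had 2 groups of 4 libraries, with RN-1 and GSK690 as 1 group and DMSO and GSK690* as the other. Agents were compared in a fit with 4 group means, replicates by the interaction of class and replicate number, and lines and times in a fit of 32 libraries with 16 group means. Intervals are at 95%. Scripts were checked on simulated data. Genes were named as the 14 highest and 8 lowest changes with no overlap between groups, up to 3 called members of each of 35 lists, 15 listed genes followed whatever their values and up to 4 genes per further comparison. Other list members were named after their values were seen. The members and lists were chosen with earlier results of these data known, so lists are described by counts and medians only. Alternatives were another pseudocount, no filter, 2 other scalings, other group structures, a replicate block and leaving out each library. Some members met these rules but are not reported here.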

Additional observations from a re-analysis of the deposited data

Results flagged for a closer look

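Of 178 groups of 4 libraries examined over 90 named genes, 7 held a library far from the other three, and chance alone gives this in about 1 in 20 groups. In controls, GSK690* replicate 1 stood apart for GLIPR1 (3.56 FPKM, nearest control 1.58), TNFRSF10B (5.94, nearest 3.67) and LTA4H (65.2, nearest 54.7). DMSO replicate 1 was low for TPSB2 (2.56 FPKM, nearest 3.94), GSK690* replicate 2 was low for RREB1 (13.2, nearest 14.6), and DMSO replicate 2 had 0.0370 FPKM of FCRLA where the other controls were listed at 0. Among inhibitor libraries RN-1 replicate 1 was high for SPI1 (88.8 FPKM, nearest 71.9).

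The response differed between the replicates, as log2 replicate 2 minus replicate 1, for STAB1 (-2.47), GFI1B (-2.33), TPSB2 (-1.53) and HSPA6 (-1.12). Between the lines, as log2 SKNO-1 minus Kasumi-1 at 24 h, it differed for CLEC4A (3.51), GZMA (1.93), LCP1 (1.63) and MPZL1 (-1.15).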

How the results depend on the processing

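Counts of called genes moved with the fit, in the limma tests of this report, and the cause was not tested. No named gene that passed changed sign in any fit run, but the balance of calls in the main comparison did: without GSK690 replicate 2, 528 genes were higher and 649 lower. Genes higher with inhibitors (432) came to 190 with no filter, 654 with all 32 libraries, 214 with 4 group means and 177 with DMSO as the only control, and ranged from 148 to 621 when 1 library was left out. Genes lower (227) came to 66, 426, 33 and 15 in the same fits, to 72 in the replicate 2 libraries alone, and ranged from 15 to 649 when 1 library was left out. RN-1 against DMSO (64) gave 1 with no filter and 259 with 32 libraries, and 0 to 89 when 1 library was left out. For GSK690 against GSK690*, genes called (44) came to 4 and 192, and 0 to 67. RN-1 against GSK690 (0) gave 2 with no filter, and 0 to 1. The replicate difference (4) gave 0 with a pseudocount of 0.1, 0 with no filter and 8 with quantile normalization, and 1 to 35 when 1 library was left out. The difference from Kasumi-1 (50) gave 80 with quantile normalization, and 39 to 126. GSK690* against DMSO and 24 h against 72 h gave 0 in every fit run. Of 76 named genes that passed, 38 were kept with 4 group means, 27 with no filter and 31 to 74 when 1 library was left out. With a replicate block, 920 genes were higher and 676 lower (908 and 626 with 4 group means as well, a fit chosen after seeing the data), RN-1 against DMSO gave 352, GSK690 against GSK690* 264 and the difference from Kasumi-1 360. With the block, 15 of 24 cholesterol synthesis genes and 18 of 45 proliferation genes fell, and 9 of 10 class II, 8 of 19 class I and 10 of 34 lysosome genes rose. ITGAM passed with the block (adjusted p = 0.0117) and with 32 libraries (0.0138). Differences between replicates correlated across genes between agents at 0.31 to 0.54, but nothing states that a number marks a shared batch. Where a fit leaves an agent with 1 library, that library is assumed to vary like the others.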
